A study of Mus musculus with 12 samples.

Results

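Lymphatic endothelial cells were a small population of the joint digest, with 150 of the 20213 cells that had more than 500 and fewer than 5000 detected genes (0.742%). A cell was counted as lymphatic when at least 3 of the 5 transcripts Prox1, Lyve1, Ccl21a, Mmrn1 and Flt4, and at least 1 of the 3 endothelial transcripts Pecam1, Cdh5 and Egfl7, were detected, where detected means 1 or more unique molecular identifiers (UMIs, tags that mark single captured RNA molecules). The cells were thus selected on measured values of these 8 transcripts, whose levels are given below as a description. They were left out of the test against vascular cells but stayed among the genes tested between labels and between runs. The cells came from single-cell RNA sequencing of hind limb joints of young adult male wild-type C57BL/6 mice, sorted as live and negative for CD45, the common surface protein of leukocytes. Joint inflammation had been started by an intravenous injection of 100 µl K/BxN serum, which carries antibodies that cause a transient arthritis (serum transfer-induced arthritis, STIA). Of the 12 libraries, 3 were labelled rest (day 0, without serum) and 3 peak, from days 7 to 9. A further 3 were labelled resolving, from day 15, and the last 3 resolved, from day 22. Each library was made from pooled joints of 3 animals. Replicates are therefore pools of animals, and the p-values below measure the spread between such pools.

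Lymphatic vessels collect fluid, macromolecules and leukocytes from tissue and return them to the blood through lymph nodes. Their endothelium is set apart from that of blood vessels by the transcription factor Prox1, and grows in response to ligands of the receptor encoded by Flt4 (VEGFR-3). Initial lymphatic capillaries carry the hyaluronan receptor Lyve1 and secrete the chemokine Ccl21, which draws dendritic cells and T cells through their receptor CCR7. Collecting vessels further along have valves, less Lyve1, and a fuller basement membrane. In arthritic joints, lymphatic drainage is one route by which fluid and cells leave the synovium.

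Before the results, 3 features of the libraries bear on them. Totals ranged from 7739438 to 16750555 UMIs over 1231 to 2755 kept cells per library, and the median per deposited cell was 5358 UMIs in each of the 12 libraries. Within a population depth still differed, with medians of 2731 to 4446 UMIs per vascular endothelial cell. No cell barcode was shared in any of the 66 pairs of libraries. Random draws from the list of possible barcodes would give 2.09 to 9.11 shared barcodes per pair. Why there were none was not tested. Each library carries its own barcode suffix, from 1 to 12, and libraries resembled each other by runs of 3 successive suffixes more than by label. In sums over vascular endothelial cells, taken as cells with at least 2 of the 3 endothelial and at most 1 of the 5 lymphatic transcripts (7386 genes), the most similar library was one of the same run for 11 of 12 libraries and one of the same label for 0 of 12. No run holds 2 libraries of the same label, so a nearest library in the same run cannot share the label. What a run stands for is not given in the sources used here. Whether the labels belong to the libraries that carry them, or each run of 3 suffixes is a single stage, was not tested. Every share, mean and count by stage below therefore holds for the labels as given, and runs were compared as runs.

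The rule transcripts were not equally detected among the 150 cells. Mmrn1, which encodes the platelet and endothelial adhesion protein multimerin 1, was found in 144 cells (96.0%), Ccl21a in 142 (94.7%), Lyve1 in 120 (80.0%), Prox1 in 113 (75.3%) and Flt4 in 94 (62.7%). All 5 were found together in 52 cells, 4 in 59 and 3 in 39, and the most frequent combination short of all 5 lacked only Flt4 (26 cells). All 3 endothelial transcripts were found in 83 cells, 2 in 57 and 1 in 10. When each cell was thinned to 1500 UMIs, the shares were 94.0% for Ccl21a, 81.3% for Mmrn1, 66.7% for Lyve1, 48.0% for Prox1 and 36.7% for Flt4. Ccl21a was detected in 1.75% of 1829 vascular endothelial cells and in 2.32% of 14800 fibroblasts (cells with at least 4 of the 6 transcripts Pdgfra, Dcn, Lum, Serpinf1, Fbln1 and Gsn), with median depths of 3298 and 5826.5 UMIs against 3628.5 in lymphatic cells. Both populations were limited to cells with at most 1 lymphatic transcript, which holds these shares down. Among all 15946 kept cells with the same fibroblast transcripts and no such limit, 8 of them lymphatic by the rule, the share was 2.53% (0.564% after thinning).

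UMIs were summed over the lymphatic cells of each library and put on the counts-per-million scale (CPM) of that sum. Ccl21a had a level of 17049 CPM at its lowest, 34066 at the median and 69700 at its highest across the 12 libraries. Lyve1 had 678, 1583 and 3552 CPM, and Mmrn1 had 871, 1287 and 2591. Prox1, the transcription factor, had 116, 423 and 595, and Flt4 had 141, 324 and 466. Every lymphatic sum of these 5 genes lay above every vascular sum, as the choice of cells fixes. Pecam1 and Cdh5, which encode junction proteins of all endothelium, had medians of 566 and 338, and Egfl7, a secreted endothelial factor, had 1283.

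**Figure D1:**
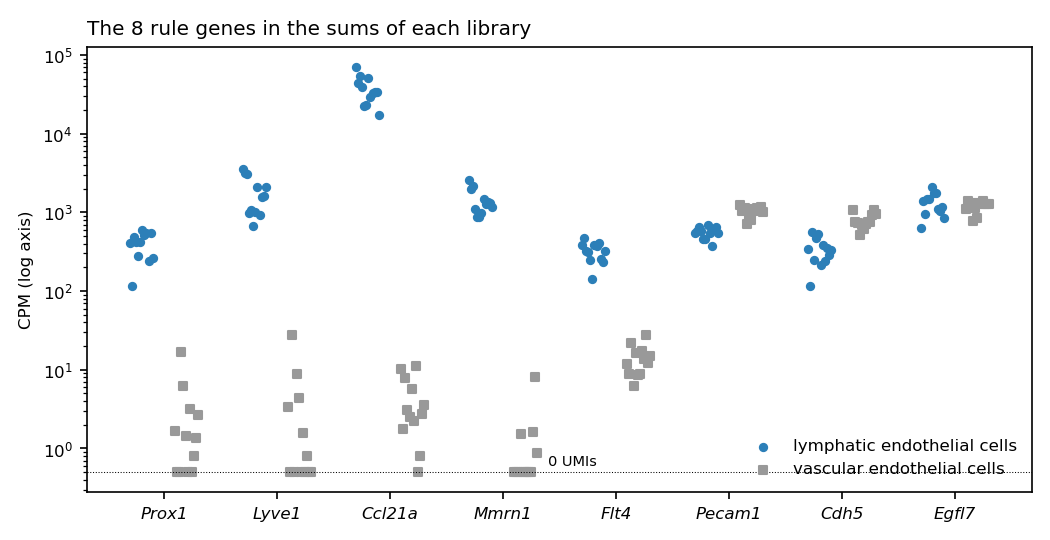
The 8 genes that chose the cells, as CPM (log axis) in the summed lymphatic (circles) and summed vascular endothelial cells (squares) of each of the 12 libraries, with sums of 0 UMIs on the dotted line. Ccl21a lies between 17049 and 69700 in lymphatic sums, and the 5 lymphatic genes are separated from the vascular sums by construction, while Pecam1, Cdh5 and Egfl7 are present in both.

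Ccl21a was also the transcript with the highest mean level in lymphatic cells after ribosomal and mitochondrial genes were set aside, at 37516 ± 15152 CPM (SD, n = 12). It was followed by the nuclear noncoding RNA Malat1 (31848), by Fth1, the ferritin heavy chain (9253), and by the actin-binding Tmsb4x (8244). Counting of 3′ ends takes 1 tag per molecule, so these levels have no length term. Most of the other leading transcripts are general or early response genes, namely Vim, Ubb, Hspa1a, Fos, Eef1a1 and Ppia, with means from 4260 to 6268. Among single cells thinned to 1500 UMIs, Ccl21a had a median of 50 UMIs with an interquartile range of 12.5 to 92, a highest value of 222, and 0 UMIs in 9 cells. Lyve1 had a median of 1 UMI and a highest value of 16, and it was at 0 in 50 of the thinned cells.

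Mouse Ccl21a (ENSMUSG00000094686, GRCm38 chr4:42772860-42773993, minus strand) lies among near-identical copies, and reads of the copies can be divided or dropped in counting. It took 24097 UMIs in the 150 cells. A second identifier also named Ccl21a took 3, a Ccl21b identifier took 48, and the gene models Gm21541 (chr4:41903610-41904743) and Gm13304 took 147 and 8. The levels of the copies relative to each other are therefore uncertain, and Gm21541, which was noticed after its values were seen, gets no test because its reads may come from the transcript that chose the cells.

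At the edge of the rule, 31 cells had 2 lymphatic transcripts together with an endothelial one, and 3 cells had at least 3 lymphatic transcripts without an endothelial one. No cell that met the marker rule had 500 or fewer detected genes, and 1 had 5000 or more. Pdpn, which encodes the surface glycoprotein podoplanin and was not used by the rule, was detected in 45.2% of the 31 cells just outside, in 59.0% of the cells with 3 transcripts, in 69.5% of those with 4 and in 71.2% of those with 5. Reln, the gene of the secreted protein reelin, was detected in 19.4%, 30.8%, 57.6% and 75% of the same groups. Their median depths were 4042, 2870, 3721 and 4117 UMIs in that order, and these shares were not taken at equal depth. Flt1, the gene of a VEGF receptor of blood vessels, was detected in 22.6% of the cells just outside and in 1 cell of each of the other 3 groups.

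The defining markers of other cell types were low in the lymphatic cells. Ptprc, the gene of CD45, and Cd68, C1qa, C1qb, Adgre1 and Cd3e were at 0 UMIs, which makes 6 of the 12 immune markers, and 0 of 150 cells allows a share of up to 2% of cells with a UMI. The summed immune markers ranged from 0 to 118 CPM in 11 libraries and reached 9358 in peak replicate 2, where 629 of the 639 UMIs of S100a8, a neutrophil gene, came from 1 cell. The 8 fibroblast markers summed to 233 to 2685 CPM (median 1037) in lymphatic sums and to 1725 to 8492 (median 4986) in vascular sums, and none of the 8 was at 0. Erythroid markers summed to 233 to 644 in lymphatic sums against 446 to 21696 in vascular sums. Mural markers had medians of 59.2 and 1057, and among Schwann and muscle markers Sox10, S100b, Myf5, Myod1 and Pax7 were at 0 in lymphatic cells. A rule for mixed cells asked for at least 3 of Pdgfra, Lum, Serpinf1 and Fbln1, or at least 2 of Ptprc, Lyz2, Cd68, C1qa and Tyrobp. It was met by 1 lymphatic cell, against 95 vascular cells (5.19%). At least 4 of the 6 fibroblast transcripts given earlier, which include Dcn and Gsn, were found in 8 lymphatic cells.

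Lymphatic cells were next compared with the vascular endothelial cells of the same libraries. The comparison asks which other genes separate the 2 kinds of endothelium in the same joints. It used the 8 libraries with at least 10 lymphatic cells (rest 1 and 2, peak 2 and 3, resolving 1 and 3, resolved 2 and 3), with 122 lymphatic and 1428 vascular cells. UMIs were summed per library and population and tested with edgeR's quasi-likelihood test with the library as a block and Benjamini-Hochberg adjustment, without the 8 rule genes. Calls required an adjusted p under 0.05 together with a change of more than 0.5 on the log2 scale, up or down. Of 4095 genes, 332 were higher in lymphatic cells (8.11%) and 540 were lower (13.2%), which makes 872 in all (21.3%). For 290 genes (7.08%) the lymphatic and the vascular sums did not overlap over the 8 libraries.

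Reln had the highest fitted fold change among the genes that were higher, with Gm21541 set aside. It had 148 CPM in the lymphatic sum where it was lowest, 290 at the median and 628 at its highest, against 0 to 3.75 in vascular sums. The pooled counts were 170 UMIs in lymphatic cells and 3 in vascular cells, a ratio of 665 with an exact 95% counting interval of 224 to 3258, and on the log2 scale the fold change of Reln was 8.74 ± 0.43 (SE) with an adjusted p of 1.96e-12 in edgeR. Reln lies at GRCm38 chr5:21884454-22344702. Pard6g and Prkcz encode partners of the cell polarity complex, and Pard6g had 218 to 1257 CPM in lymphatic and 3.23 to 11.1 in vascular sums, a log2 fold change of 6.91 ± 0.28 (adjusted p = 1.0e-13, edgeR). Prkcz, the atypical protein kinase C zeta, rose by 5.53 ± 0.45.

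Fgl2, which encodes a secreted fibrinogen-like protein with immunomodulatory and prothrombinase activity, combined a wide difference with a high level. Its lymphatic sums were 679 at the lowest, 1752 at the median and 3209 at the highest, and its vascular sums were 7.87 to 82.5 CPM. The log2 fold change was 5.63 ± 0.27 (adjusted p = 1.96e-12, edgeR). Lcn2, the gene of the iron-sequestering protein lipocalin 2, had 159 to 947 CPM in lymphatic and 3.73 at the median in vascular sums, with a highest vascular value of 62.5 and a log2 fold change of 5.58 ± 0.48. The 947 CPM were in peak replicate 2, where the immune markers of the lymphatic sum reached 9358 CPM. The part of immune transcripts in Lcn2 was not tested. Ackr2, the gene of a receptor that binds inflammatory CC chemokines without signalling to migration and clears them, had 37.0 to 160 CPM against 0 to 3.75, and rose by 5.59 ± 0.46 (adjusted p = 6.25e-09, edgeR). For each of these 3 genes all 8 lymphatic sums were above the vascular sum of their own library. That was a condition for the list of highest fitted fold changes.

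The rest of the 12 genes with the highest fitted fold changes were Slc45a3 (7.87 on the log2 scale), Tc2n (6.44), Clca3a1 (5.79), Sema3d (5.31), Gpm6a (5.17) and Adgrg3 (4.74). Slc45a3, a member of the solute carrier family, had 133 to 357 CPM in lymphatic and 0 to 2.72 in vascular sums. Sema3d encodes a secreted guidance protein of the semaphorin family, and its lymphatic sums of 93.3 to 240 lay above all its vascular sums, of which the highest was 15.7. Gpm6a, the gene of a membrane glycoprotein best known from neurons, had a mean of 363 against 9.12 CPM.

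Promoter sequences are shown for Reln, for the high-level gene Fgl2 and for C1qtnf9, a gene at 0 UMIs in lymphatic cells with the lowest fitted fold change, to set the start sites of the genes that separate the populations side by side. Each run is 300 bases from RefSeq on GRCm38.p6, from 250 bases before the start to 50 after it, read 5′ to 3′ on the gene's strand, and capitals mark CG dinucleotides, the sites of DNA methylation.
Reln (chr5:22344656-22344955, minus strand): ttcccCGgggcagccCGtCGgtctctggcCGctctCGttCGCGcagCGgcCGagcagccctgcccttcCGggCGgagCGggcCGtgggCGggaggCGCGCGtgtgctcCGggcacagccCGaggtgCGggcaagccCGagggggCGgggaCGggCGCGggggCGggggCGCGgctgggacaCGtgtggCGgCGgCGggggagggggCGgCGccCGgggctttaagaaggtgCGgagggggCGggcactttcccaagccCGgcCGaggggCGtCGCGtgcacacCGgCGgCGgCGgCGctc
Fgl2 (chr5:21372423-21372722, plus strand): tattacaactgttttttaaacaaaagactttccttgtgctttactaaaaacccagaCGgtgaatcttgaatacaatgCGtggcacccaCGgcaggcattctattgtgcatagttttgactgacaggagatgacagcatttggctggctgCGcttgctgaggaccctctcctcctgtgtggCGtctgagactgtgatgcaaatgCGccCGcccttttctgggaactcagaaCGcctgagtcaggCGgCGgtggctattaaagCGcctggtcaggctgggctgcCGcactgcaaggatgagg
C1qtnf9 (chr14:60767884-60768183, plus strand): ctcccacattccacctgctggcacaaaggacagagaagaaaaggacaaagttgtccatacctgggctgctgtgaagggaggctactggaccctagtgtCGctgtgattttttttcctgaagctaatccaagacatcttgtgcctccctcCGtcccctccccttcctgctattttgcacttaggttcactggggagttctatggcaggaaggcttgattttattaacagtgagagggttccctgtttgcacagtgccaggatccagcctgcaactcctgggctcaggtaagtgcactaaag
The Reln window held 47 CG dinucleotides and 80.7% G and C, a count that 1.41% of all listed promoters match or exceed. The Fgl2 window held 12, a count reached by 40.1% of promoters, and the C1qtnf9 window held 2, reached by 85.4%. Over the first listed window of 27025 genes the median was 7 with an interquartile range of 3 to 21, and over the 3164 tested genes with a window it was 22 (15 to 30). For the 12 highest fitted fold changes, 11 of 12 had a window, with a median of 8 and a range of 3 to 47. For the 12 lowest fitted fold changes, 8 had one, with a median of 2 and a range of 0 to 28. These counts describe the windows alone, since no methylation was measured.

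Genes known from lymphatic identity were mostly higher in the lymphatic cells. Of 20 tested members of a list of 25, 12 were higher and 2 lower, with a median log2 fold change of 1.68 beside −0.03 over all genes tested. Of all genes tested, 8.11% were higher and 13.2% lower. Maf, a transcription factor of lymphatic endothelium, had 162 to 631 CPM against 1.97 to 20.6 and rose by 4.71 ± 0.31. Pdpn had 177 at its lowest, and 631 at its highest, against 5.91 to 53.3, and rose by 4.03 ± 0.31 (adjusted p = 2.14e-09, edgeR). Fxyd6, a regulator of the sodium pump, had 679 to 1768 against 39.4 to 110 and rose by 4.08 ± 0.22. Cp (ceruloplasmin, 4.12), Nts (neurotensin, 3.89), the scavenger receptor Stab1 (3.01), the transcription factor Nr2f2 (2.09), the Tie2 ligand Angpt2 (1.75), the tetraspanin Cd9 (1.61) and the protease inhibitor Timp3 (1.30) rose as well. The 2 members that were lower were Ptprb (−2.40), the phosphatase that restrains Tie2, and Tek (−1.65), the Tie2 receptor itself.

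In single cells, Pdpn was detected in 67.3% of lymphatic and 4.87% of vascular cells, and in 36.7% and 1.37% after thinning to 1500 UMIs. It was also found in 50.1% of fibroblasts, where it is known as a marker of synovial lining and sublining cells. Reln was detected in 56.7% of lymphatic and 0.273% of vascular cells, and Maf in 57.3% and 2.68%. Fxyd6 was found in 87.3% against 13.8%. Il7, the gene of a T-cell survival factor made by lymphatic endothelium, did not pass the filter on low counts, and it was detected in 60 of 150 lymphatic cells (40.0%, 17.3% after thinning), in 0.437% of vascular cells and in 1.12% of fibroblasts.

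**Figure D2:**
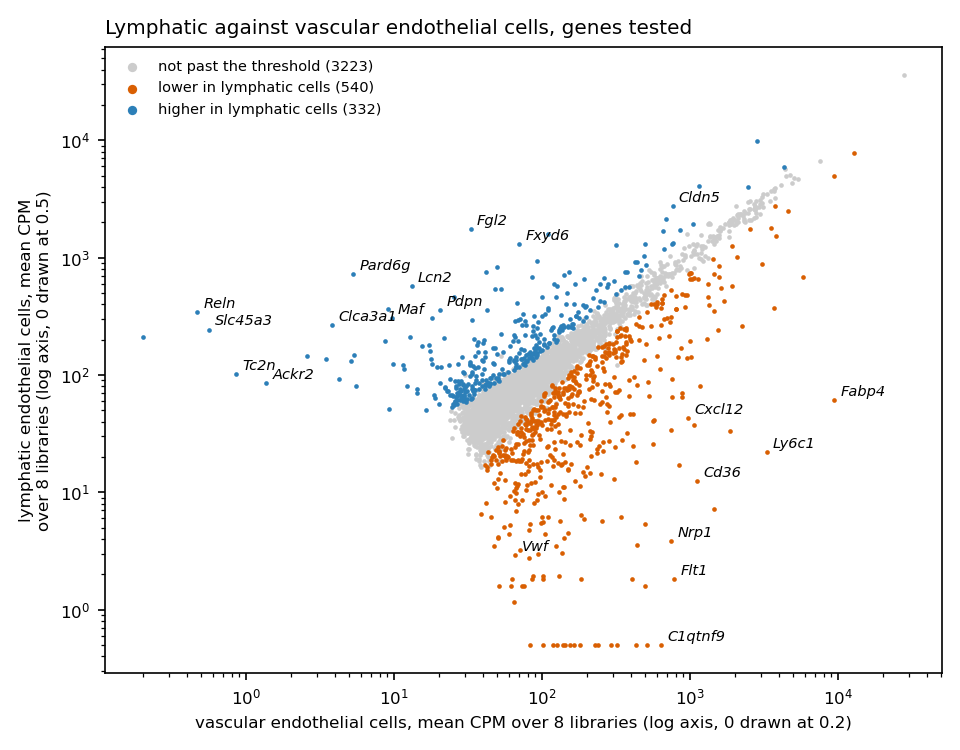
Mean CPM over 8 libraries in lymphatic (vertical, log axis) against vascular endothelial cells (horizontal, log axis) for the 4095 genes tested, with 332 higher in lymphatic cells in blue, 540 lower in orange, and means of 0 drawn at the edge. Reln, Pard6g and Fgl2 stand farthest above the diagonal among the labelled genes with over 300 lymphatic CPM, and C1qtnf9 is at 0 in lymphatic cells.

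Genes of blood vessel endothelium were lower as a group. Of 26 tested members of a list of 31, 21 were lower and 1 higher, with a median of −2.52. The shares over all genes tested were 13.2% lower and 8.11% higher. Fabp4, a fatty acid carrier of capillaries, had 0 to 148 CPM in lymphatic sums against 4440 to 13401 in vascular sums, and fell by 7.35 ± 0.30 on the log2 scale (adjusted p = 1.61e-13, edgeR). Cd36, the fatty acid translocase, had a mean of 12.4 against 1117, and Ly6c1 a mean of 22.1 against 3297. For both genes every lymphatic sum was below every vascular sum. The pooled ratio for Flt1 was 0.00237 with an exact counting interval of 5.99e-05 to 0.0132, and the vascular sums of Flt1 were 429 to 1089 CPM. Kdr, which encodes VEGFR-2, a receptor for VEGF-A on both kinds of endothelium, had 177 to 364 against 199 to 502 and was not called (−0.40 ± 0.19, adjusted p = 0.174, edgeR). The 1 member that was higher was the receptor Notch1 (0.62 ± 0.20, adjusted p = 0.0244, edgeR).

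Each of the 12 genes with the lowest fitted fold changes, numbered gene models set aside, had 0 UMIs in the lymphatic cells of the 8 libraries. For a gene at 0 the fitted value depends on a prior count, so these 12 are not ranked above genes with measured falls such as Flt1, Fabp4 and Ly6c1, and their folds are given as bounds from 3 counts in the pooled sum. C1qtnf9, which encodes a secreted relative of adiponectin, was at least 121-fold lower, with 203 to 918 CPM in vascular sums. Jam2, a junctional adhesion molecule that leukocytes bind when they cross blood vessels, had 200 to 671 in vascular sums and was at least 76.7-fold lower. The bounds were 56.7-fold for the stem cell factor gene Kitl, 54.1-fold for the arterial transcription factor Sox17, 47.3-fold for the glycerol channel Aqp7 and 39.4-fold for the apelin receptor Aplnr. For Mndal, Car8, Cd38, Mecom, Ccdc85a and Tmem252 they were 24.2-fold to 31.8-fold. They were chosen as lower in every library, so with 0 UMIs in lymphatic cells their lymphatic and vascular sums could not overlap.

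Of the genes that guide or hold leukocytes, 4 were higher and 8 lower among 15 tested members of a list of 25, with a median of −1.04. Among all genes tested, 8.11% were higher and 13.2% lower. Beside Ackr2, the members that were higher were Ackr3 (1.57 ± 0.31), which takes up CXCL12, Spns2 (1.16 ± 0.30), the exporter of sphingosine 1-phosphate, and Cd47, which restrains uptake by phagocytes (0.92 ± 0.12). Cxcl12 itself had 0 to 77.6 CPM in lymphatic sums against 492 to 1275 in vascular sums, and fell by 4.44 ± 0.27 (adjusted p = 6.82e-11, edgeR). Vcam1 had a pooled ratio of 0.0976 with a counting interval of 0.0200 to 0.287. Icam2 fell by 1.04 ± 0.25 and Csf1 by 1.47 ± 0.40. Icam1 had 93.5 to 1035 in lymphatic and 171 to 600 in vascular sums, with groups that overlapped, and it was not called (−0.10 ± 0.28, adjusted p = 0.868, edgeR). Vwf, which is stored in granules of blood vessel endothelium, was detected in 1 lymphatic cell and in 15.3% of vascular cells.

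Inflammatory and interferon genes were mostly lower in lymphatic cells. Of 17 tested inflammatory genes of 29, 10 were lower and 1, Lcn2, was higher, with a median of −1.06. Cxcl1, a chemokine for neutrophils, had 23.4 to 248 CPM against 417 to 826, and fell by 2.50 ± 0.26 without overlap. Il6 fell by 2.34 ± 0.55 with overlapping sums (0 to 372 against 129 to 380). Of 15 tested interferon and MHC genes of 22, 12 were lower and 1, Ifi27l2a (1.39 ± 0.31), was higher, with a median of −1.88. Both lists stand beside 13.2% lower and 8.11% higher over all genes tested. B2m, the light chain of MHC class I, had 510 to 1178 against 2035 to 3793, and fell by 1.88 ± 0.20 (adjusted p = 1.77e-07, edgeR). H2-K1 fell by 1.72 ± 0.22 and H2-D1 by 1.11 ± 0.13, and the interferon-induced Iigp1 and Ifit1 fell by 4.25 and 3.88.

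Scavenging and matrix genes were divided. Of 12 tested members of the hyaluronan and scavenger list of 20, 3 were higher, namely Stab1, the collectin Colec12 (1.17 ± 0.32) and the lysosomal tetraspanin Cd63 (1.15 ± 0.19), and 8 were lower, with a median of −2.29. Cd44, the other main hyaluronan receptor, had 0 to 25.6 CPM against 42.5 to 98.3 and fell by 3.22 ± 0.52. The lipoprotein receptor Scarb1 and the lipid carriers Apoe, Fabp4 and Fabp5 were among the lower members. Of 15 tested basement membrane genes of 18, 2 were higher and 6 lower, with a median of −0.12. The shares over all genes tested were 8.11% higher and 13.2% lower. Col18a1 (1.47 ± 0.39) and the laminin chain Lama4 (1.14 ± 0.18) were the higher ones. Sparc, a matrix protein of blood vessels, had 124 to 1522 against 3570 to 8833 and fell by 3.38 ± 0.23, Col15a1 fell by 4.84 ± 0.49, and the collagen IV chain Col4a1 fell by 1.01 ± 0.18.

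Among 20 tested genes shared by endothelia, of a list of 21, 4 were higher and 9 lower, with a median of −0.63. Cldn5, which encodes a tight junction protein, had 1587 to 3881 CPM in lymphatic and 482 to 1004 in vascular sums, and rose by 1.73 ± 0.13 without overlap. Ecscr (0.96 ± 0.13) and the adrenomedullin receptor Calcrl (0.78 ± 0.23) were higher, while Cd93 (−4.75 ± 0.29) and Clec14a (−3.30 ± 0.37) were lower. In the list of growth signals, 15 of 30 were tested, 3 were higher and 6 lower, with a median of 0.05. For both lists the shares over all genes tested were 8.11% higher and 13.2% lower. Nrp1, the co-receptor of blood vessel VEGF signalling, had 0 to 17.7 against 321 to 1073, and Fgfr1 rose by 1.42 ± 0.20. Among 5 tested cell cycle genes of 20, none was called by edgeR.

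Genes induced by tissue digestion and heat shock proteins were also lower where they were called. Of 23 tested, 10 were lower and none higher, with a median of −0.49. For this list and the cell type markers below, the shares over all genes tested were 13.2% lower and 8.11% higher. The small heat shock protein gene Hspb1 fell by 1.25 ± 0.29 and Ier3 by 1.32 ± 0.25, whereas Fos, with 1777 to 10568 CPM against 2790 to 5976, was not called (0.21 ± 0.19, adjusted p = 0.541, edgeR). The tested fibroblast markers were lower in 6 of 6 cases, the mural markers in 3 of 3 and the erythroid markers in 4 of 4. Dcn, a fibroblast proteoglycan, fell by 2.09 ± 0.28. When the cells that met the rule for mixed cells were left out of both populations, Dcn was at −0.48 with an adjusted p of 0.28 in edgeR. In that setting 864 genes were called over all genes. The rule does not use Dcn, but it removes cells by other fibroblast markers, so less Dcn follows from the choice of cells. The part of fibroblast, mural and erythroid transcripts in the other differences was not tested.

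**Figure D3:**
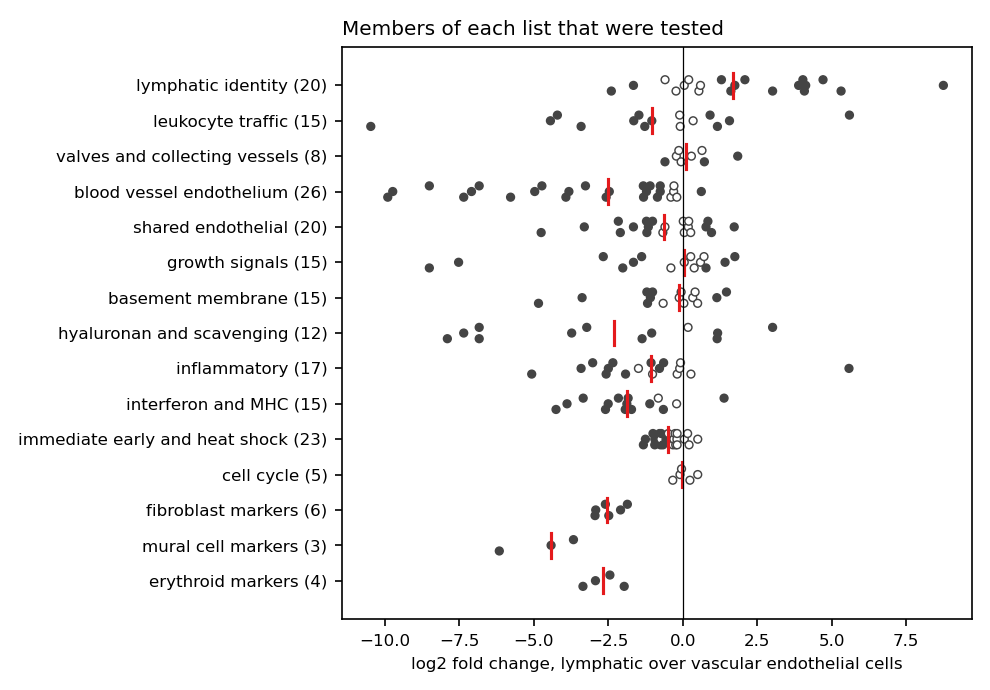
Log2 fold change of lymphatic over vascular endothelial sums for the tested members of each list, with the number tested in parentheses, filled circles for genes past the threshold, open circles for the others, and red bars for medians. The lymphatic identity list has its median at 1.68 and the blood vessel list at −2.52, and the interferon and MHC list lies mostly below 0 with a median of −1.88.

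Within the 150 cells, genes of valves and collecting vessels were found in a minority. Of 17 such genes, 8 were tested against vascular cells, with 2 higher and 1 lower, beside 8.11% and 13.2% of all genes tested. The median log2 fold change of the 8 was 0.12. Nfatc1, a transcription factor of valve formation, rose by 1.84 ± 0.27, the connexin gene Gja4 by 0.73 ± 0.26 (adjusted p = 0.0483, edgeR), and Gja1 fell by 0.60 ± 0.18. Cldn11 was detected in 27 lymphatic cells (18%) against 0.492% of vascular cells, the valve integrin Itga9 in 25 (16.7%) against 4.59%, and the valve regulator Foxc2 in 17 (11.3%) against 1.42%. After thinning to 1500 UMIs, Foxc2 was left in 2.67% of lymphatic cells.

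At least 3 of 6 valve genes (Foxc2, Cldn11, Gja4, Itga9, Gata2 and Celsr1) were found in 20 cells, 2 in 30 and 0 or 1 in 100. Their median depths were 7244, 4152.5 and 3251.5 UMIs, so detection of these genes moved with depth. Lyve1 was detected in 15 of the 20, 23 of the 30 and 82 of the 100 cells, and Reln in 14, 20 and 51. Thinned to 1500 UMIs, the median of Ccl21a was 42.5 UMIs in the first of these groups, 51 in the second and 51.5 in the third. At least 3 of 8 cell cycle genes (Mki67, Top2a, Ccnb1, Ccna2, Cdk1, Birc5, Ube2c and Cenpf) were found in 9 lymphatic cells (6.00%) and in 64 vascular cells (3.5%). These classes are ranges of a count and not cell types.

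The share of lymphatic cells by label was compared next, to ask whether their number among CD45-negative cells differed over the course of arthritis. The libraries labelled rest had shares of 0.687%, 0.767% and 0.558% of kept cells, and those labelled peak had 0.222%, 0.980% and 0.533%. Those labelled resolving had 1.06%, 0.523% and 0.982%, and those labelled resolved had 0.690%, 1.02% and 0.785%. The lowest share, in peak replicate 1, rested on 3 cells of 1350, with a 95% Wilson interval of 0.0756% to 0.651%, and the highest, in resolving replicate 1, on 13 of 1231, with 0.618% to 1.80%. The ranges of all 4 labels overlapped. Such intervals cover counting error only.

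Mean shares were 0.671% ± 0.105 at rest, 0.578% ± 0.381 at peak, 0.853% ± 0.289 in the resolving and 0.830% ± 0.168 in the resolved libraries (SD, n = 3 each). Without peak 1 the difference of peak from rest was 0.0856 percentage points. With all libraries the differences from rest were −0.0925, 0.183 and 0.160 percentage points, with exact two-sided permutation p = 0.7, 0.4 and 0.2, and Benjamini-Hochberg values of 0.7, 0.6 and 0.6. A comparison of 3 with 3 cannot reach a p below 0.1. Labels took 22.5% of the variance between libraries (exact permutation p = 0.537 over 15400 partitions), and runs of suffixes took 6.35% (p = 0.906, exact permutation). A share of cells depends on all other cells in the digest. As a share of lymphatic and vascular endothelial cells together, over which the 150 cells made up 7.58%, the means were 8.29% ± 0.567 at rest, 6.59% ± 5.83 at peak, 8.27% ± 1.52 in the resolving and 10.4% ± 7.60 in the resolved libraries. With that denominator labels took 10.4% of the variance and runs 41.9%, the reverse order, with exact permutation p = 0.835 and 0.195.

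**Figure D4:**
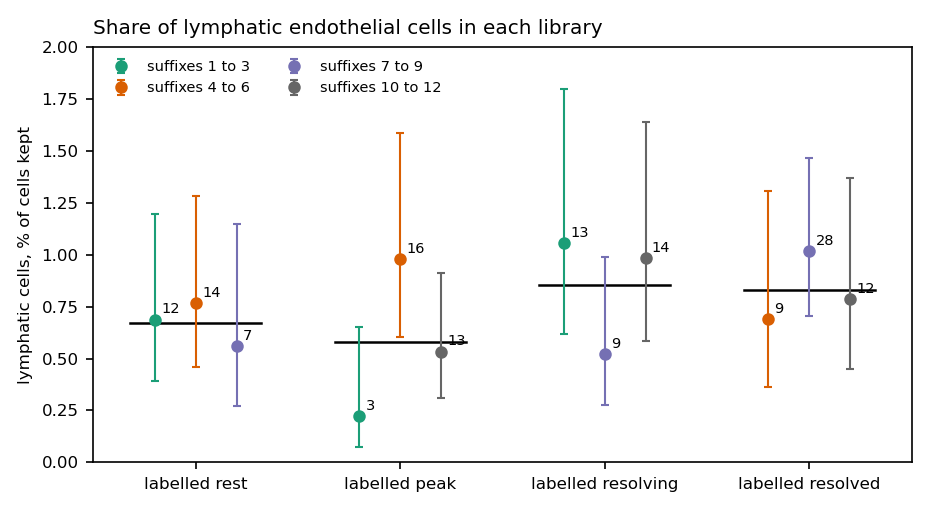
Lymphatic endothelial cells as a percentage of kept cells in each of the 12 libraries, with 95% Wilson intervals, the number of lymphatic cells beside each point, colours for runs of barcode suffixes, and a bar for the mean of each label. The points range from 0.222% to 1.06%, and the ranges of the 4 labels overlap.

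Expression by label was tested in the 11 libraries with at least 5 lymphatic cells, which left out peak replicate 1 with its 3 cells, so that peak had 2 libraries. Lymphatic sums held 29321 to 107127 UMIs, and the resulting filter left 1583 genes. In edgeR's quasi-likelihood test no gene was called for peak, resolving or resolved against rest (0.0% each), with 53, 65 and 28 genes at an unadjusted p under 0.05, and DESeq2 also called 0 in each. Without peak 3 the peak contrast had 7 calls, and without peak 2 it had 1, each resting on a single peak library that is assumed to vary like the others. The same 11 sums and 1583 genes gave calls between runs of suffixes, as described below. The main label model had no term for runs, so differences between runs counted in its spread. A p that misses the threshold does not show that the stages were alike.

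Values by library show the spread behind that result. Fgl2 had 2296, 1063 and 682 CPM in the libraries labelled rest, 678 and 1330 at peak, 2198, 1000 and 3209 in resolving and 989, 989 and 2173 in resolved ones, with overlapping ranges. Lcn2 had 853, 162 and 409 at rest, 947 and 647 at peak, 655, 0 and 461 in resolving and 251, 159 and 685 in resolved libraries. Icam1 had 155, 413 and 136 at rest, 333 and 222 at peak, 93.5, 167 and 975 in resolving and 204, 168 and 1035 in resolved libraries, so that a single library set the upper end of both late labels. Few cells carried these upper values, with 45 Icam1 UMIs in a single cell of resolved 3 and 28 and 15 in cells of resolving 3. Pdpn had 512, 443 and 273 at rest, 256 and 240 at peak, 631, 643 and 177 in resolving and 361, 364 and 219 in resolved libraries. Its peak values were below all rest values, and for 15.1% of all tested genes the sums of peak and rest did not overlap. The same share was 7.01% for resolving and 5.81% for resolved against rest.

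No member of any list was called by label in edgeR. Lymphatic identity genes (14 tested) had medians of 0.14 at peak, −0.07 in resolving and −0.17 in resolved against rest, and the 8 tested inflammatory genes had 0.33, −0.16 and 0.33. The 6 tested interferon and MHC genes had −0.14, −0.05 and −0.32. The 6 tested genes of valves and collecting vessels had a median of 0.64 at peak. The 5 tested cell cycle genes had the medians farthest from 0, at −2.87, −5.11 and −0.89. Of these genes, Ccnb2, Birc5 and Cdc20 were at 0 UMIs in all 3 resolving libraries, where fitted values depend on a prior count. Hmgb2, a chromatin protein of dividing cells, was the only one of the 5 found in each of the 11 libraries, with 109 to 753 CPM at rest, 111 to 192 at peak, 93.5 to 119 in resolving and 102 to 518 in resolved libraries, and the ranges overlapped with that of rest. Over all 1583 genes the medians were −0.03, 0.00 and −0.02.

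Lymphatic levels did differ between the runs of barcode suffixes. Earlier results of these data had shown libraries to resemble each other by run, so this grouping was not chosen independently of the data. Against suffixes 1 to 3 (rest 1 and resolving 1, since peak 1 was left out), 58 genes were higher (3.66%) and 79 lower (4.99%) in suffixes 4 to 6 (resolved 1, rest 2 and peak 2), 137 in all (8.65%). In suffixes 7 to 9 (resolving 2, resolved 2 and rest 3) there were 41 (2.59%), with 10 higher (0.632%) and 31 lower (1.96%). In suffixes 10 to 12 (peak 3, resolving 3 and resolved 3) there were 4 (0.253%), with 3 higher (0.19%) and 1 lower (0.0632%). Lymphatic sums did not overlap with those of suffixes 1 to 3 for 40.9%, 33.2% and 27.2% of all genes in the 3 contrasts. All 3 contrasts share the same 2 reference libraries. The count for suffixes 4 to 6 was 54 without rest 1, 33 without resolving 1, and 82 without rest 2 or without peak 2. The count for suffixes 7 to 9 was 13 without rest 1, 15 without resolving 1 and 20 without rest 3. For suffixes 10 to 12 it was 7 without rest 1, 2 without rest 2 or resolved 1, and 0 without resolving 1, resolved 2 or resolved 3.

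Igfbp5, which encodes a secreted binding protein of insulin-like growth factors, had 2156 and 4372 CPM in suffixes 1 and 3. It had 220, 443 and 269 in suffixes 4 to 6, 190, 485 and 409 in suffixes 7 to 9, and 1016, 1844 and 2129 in suffixes 10 to 12. The middle runs were thus below every library of the other runs. The log2 fold change was −3.41 ± 0.38 for suffixes 4 to 6 (adjusted p = 4.59e-05, edgeR) and −3.15 ± 0.39 for suffixes 7 to 9 (adjusted p = 0.000334, edgeR), and Igfbp5 was not called for suffixes 10 to 12 (−0.94 ± 0.35).

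Ptn, the gene of the heparin-binding growth factor pleiotrophin, had 652 and 1870 CPM in suffixes 1 and 3, 62.8, 44.3 and 12.8 in suffixes 4 to 6, and 71.4, 168 and 273 in suffixes 7 to 9. It had 610, 355 and 598 in suffixes 10 to 12. It fell by 4.96 ± 0.53 and by 2.95 ± 0.46 in the middle runs (adjusted p = 4.59e-05 and 0.00194, edgeR). Without resolving 1, Ptn was not called for suffixes 7 to 9. Sdpr, a gene of caveolae, fell by 2.76 ± 0.34 in suffixes 4 to 6, from 2979 and 3063 to 722, 251 and 410. Gas6, the ligand of the TAM receptors, fell in all 3 runs, by 2.26, 2.22 and 1.75.

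Some lymphatic identity genes were also lower in the middle runs. Reln had 621 and 397 CPM in suffixes 1 and 3 and fell by 1.64 ± 0.39 in suffixes 4 to 6 and by 1.81 ± 0.42 in suffixes 7 to 9. Of 14 tested identity genes, 5 were lower and 1 higher in suffixes 4 to 6, with a median of −0.74, and the lower ones included Cd9 (−1.57), Timp3 (−1.35) and Fxyd6 (−1.20). Over all genes tested, 4.99% were lower and 3.66% higher in that run. Of the 5 lymphatic rule genes, which the rule bounds from below, 3 were called lower in suffixes 4 to 6 and 2 in suffixes 7 to 9. In suffixes 7 to 9, 1.96% of all genes tested were lower. Of the 3 endothelial rule genes, 1 was called higher in suffixes 4 to 6. These calls are part of the counts between runs given above. Lyve1 had run means of 3296, 910, 1350 and 1755 and Ccl21a 61795, 28012, 37662 and 28394 CPM in the order of the suffixes. Prox1 had 447, 376, 551 and 351.

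Of 9 tested basement membrane genes, 4 were higher in suffixes 4 to 6 and 5 were not past the threshold (median 1.45), beside 3.66% of all tested genes that were higher. Fn1, the fibronectin gene, had 109 and 93.5 CPM in suffixes 1 and 3 and 754, 1476 and 2023 in suffixes 4 to 6, and rose by 3.73 ± 0.48 (adjusted p = 0.000107, edgeR). Sparc had 341 and 304 against 1853, 1461 and 871, and rose by 2.03 ± 0.46. The summed fibroblast markers in the same lymphatic sums were 655 to 1133 CPM in suffixes 1 to 3, 1715 to 2685 in suffixes 4 to 6, 648 to 1428 in suffixes 7 to 9 and 816 to 942 in suffixes 10 to 12, and 2 of the 4 tested fibroblast markers were called higher in suffixes 4 to 6. Their part in the matrix differences was not tested. In suffixes 10 to 12 the called genes were Cd24a (2.78), Gem (3.46) and the stress gene Gadd45g (2.25), which were higher, and Gas6, which was lower. None of these 4 was called without resolving 1.

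Vascular sums of the same libraries were set beside the lymphatic ones to see whether the run differences were shared. The test of the difference between the populations, added after the data were seen, called 33 of 2888 genes (1.14%) for suffixes 4 to 6, with 16 higher in lymphatic cells (0.554%) and 17 lower (0.589%). It called 11 (0.381%) for suffixes 7 to 9, with 3 higher (0.104%) and 8 lower (0.277%), and 9 (0.312%) for suffixes 10 to 12, with 6 higher (0.208%) and 3 lower (0.104%). Igfbp5 differed by −3.52 ± 0.61 and Ptn by −6.25 ± 0.54 on the log2 scale for suffixes 4 to 6 (adjusted p = 0.00308 and 1.60e-07, edgeR), with vascular changes of 0.25 and 1.36. Gas6, in contrast, changed by −1.47 in vascular cells as well, and its difference for suffixes 4 to 6 was −0.70 ± 0.39 (adjusted p = 0.5, edgeR). For suffixes 10 to 12 the difference of Gas6 was −1.83, which is among the results flagged below.

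**Figure D5:**
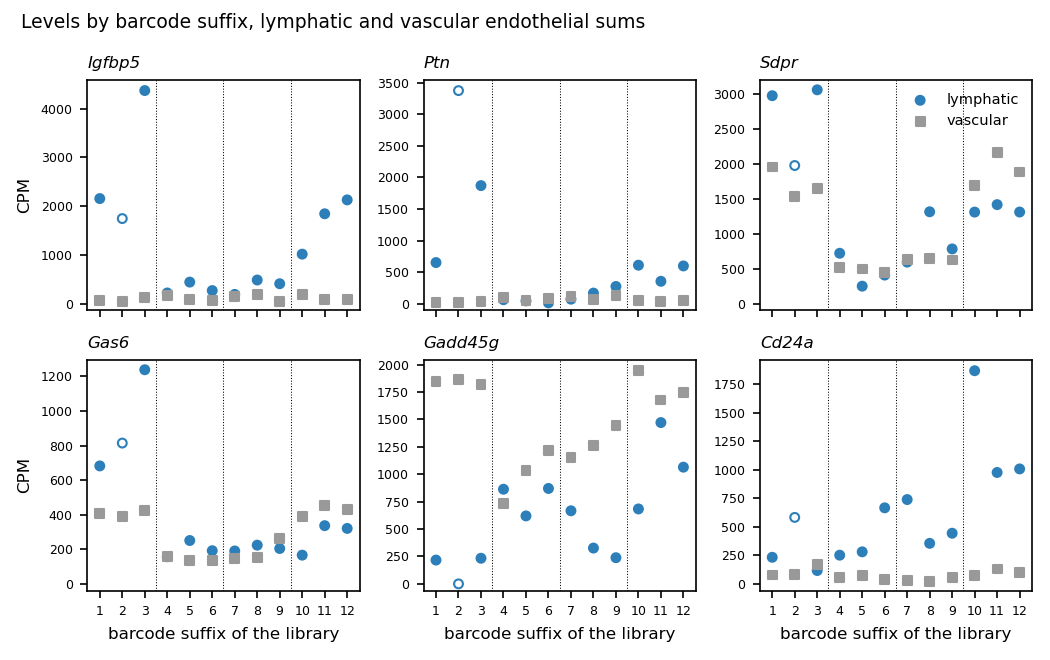
CPM of 6 genes in lymphatic (circles) and vascular endothelial sums (squares) of each library, in the order of the barcode suffix, with dotted lines between runs of 3 suffixes and an open circle for the library with 3 lymphatic cells that was left out of the test. Lymphatic Igfbp5 runs from 2156 and 4372 in suffixes 1 and 3 to at most 485 in suffixes 4 to 9, while its vascular sums reach at most 195 in any library.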

How the data were processed

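The authors sequenced 10x Genomics 3′ libraries of sorted joint cells, used Cell Ranger and mm10, and deposited UMI counts per gene and cell, which are whole numbers with the same median per cell in every library. Whether depth was adjusted, and the filters before deposit, are not given in the sources used here. Of 27998 gene identifiers, 27645 were matched to GENCODE M21 for GRCm38 positions.

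Cells with more than 500 and fewer than 5000 detected genes were kept, and doublets were not called. UMIs were summed per library and population for the tests. These used the two-sided quasi-likelihood test of edgeR 4.0.16 under R 4.3.3, with filterByExpr, TMM scaling and Benjamini-Hochberg adjustment, and were tried on simulated counts first. A standard error is the log2 fold change divided by the square root of its F statistic. Shares were tested by exact permutation (scipy 1.17.1). The members, the lists and the comparison of runs were chosen with earlier results of these data known. Named genes were the 8 rule genes, the 12 highest and 12 lowest fitted fold changes with 1 direction in every library without numbered gene models, the 5 widest and 3 highest members of each list, up to 5 genes by adjusted p for labels and runs, and the 10 genes with the highest lymphatic level. Foxc2, Cldn11, Itga9 and other genes below the filter, Gm21541, and genes named in groups were chosen after their values were seen.

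Replicate numbers did not pair the samples: deviations of same-numbered libraries correlated at r = −0.32 to 0.33 over 15 pairs (1580 genes, which are not independent). Alternatives were RLE and total-count scaling, no filter, DESeq2 1.42.0, marker cuts, thinning to 2000 UMIs, other minimum cell numbers, blocks, other denominators and leaving out each library. Added after seeing the data were the removal of mixed cells from both populations and the test of runs between populations.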

Additional observations from a re-analysis of the deposited data

Results flagged for a closer look

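Chance would put about 1 in 20 groups of this size past the limit used for a library that stands apart. Over the log2 differences of 24 named genes in the 8 libraries of the comparison with vascular cells, 1 library stood apart for 1 gene. Lcn2 was higher in lymphatic than in vascular sums by 1.31 in rest replicate 2, where the median over the 8 libraries was 6.09. The vascular sum of rest replicate 2 also had the highest summed immune markers, at 616 CPM beside a median of 33.6 over the 12 vascular sums. The part of immune transcripts in Lcn2 was not tested.

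A second kind of entry is a difference between lymphatic and vascular cells in how a gene changed between runs of barcode suffixes, tested in edgeR with the library as a block and added after the data were seen. For suffixes 4 to 6 against 1 to 3 the lymphatic minus the vascular change was −3.52 for Igfbp5, −6.25 for Ptn, −2.15 for Tppp3 and 2.65 for Gadd45g, on the log2 scale. Igfbp5 and Ptn are growth factor system genes that were lower in the lymphatic sums of that run, and Gadd45g, a stress response gene, was higher there while it changed by −0.80 in vascular sums. For suffixes 7 to 9 the differences were −3.72 for Igfbp5, −4.56 for Ptn and −1.59 for Ppp1r2, a gene of a phosphatase inhibitor. For suffixes 10 to 12 they were −1.83 for Gas6 and 2.22 for Gadd45g. The reference run held 2 libraries in each case, and what the runs stand for was not tested.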

How the results depend on the processing

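Against vascular cells, 2025 genes were called without the filter on low counts (1556 lower, 15953 tested), 377 with at least 4 of 5 lymphatic markers (134 higher, 243 lower), where 3 libraries kept 10 cells, and 421 with each cell thinned to 2000 UMIs (142 higher, 279 lower, 2014 tested). Leaving out 1 library gave 801 to 912 (283 to 346 higher, 480 to 573 lower). Of the results for single genes in that comparison, 2128 kept direction and side of the threshold and 78, over 35 genes, kept direction but were no longer past it. Kdr was called without the filter (−0.69) and was at 0.075 with at least 4 markers, where Vim was at −0.10. Icam1 was at 0.06 without rest 1, 0.03 without peak 3 and 0.11 without resolving 1, its highest value, and at −0.30 without resolved 3, its lowest.

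Without the filter 18 genes were called for peak and 13 for resolving against rest, and leaving out 1 library gave 0 to 7 for peak and 0 to 0 for resolving and resolved. For suffixes 4 to 6, DESeq2 called 82 and a block of labels left 73, with 33 to 146 when 1 library was left out. For suffixes 7 to 9, at least 4 markers gave 27 and the block of labels 25, with 13 to 43 when 1 library was left out. For suffixes 10 to 12, total counts and DESeq2 each gave 8, no filter 21, and at least 4 markers, the block of labels and those libraries compared alone each gave 0, with 0 to 7 when 1 library was left out. Of the results for single genes between runs, 367 kept direction and side of the threshold and 68, over 10 of 22 pairs of gene and contrast, were no longer past it, among them all 4 calls for suffixes 10 to 12 and the calls of Gem in each contrast. The causes were not tested. The difference in share of resolving from rest was −0.0189 percentage points of endothelial cells. Leaving out 1 library moved the differences in share over −0.293 to 0.0856 for peak, 0.0813 to 0.348 for resolving and 0.0666 to 0.230 for resolved, the part of variance by label over 14.9% to 52.9%, and that by run over 3.16% to 29.7%. Of endothelial cells, label took 10.4% and run 41.9%.

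With the replicate number as a block, which the labels and the data do not tie to shared animals, 907 genes were called against vascular cells and 0 for each label, and the shares had exact permutation p = 0.75, 0.5 and 0.25. Depth limits the lymphatic sums of 8592 to 107127 UMIs, in which 3 counts correspond to 28.0 to 349 CPM.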
